A study of Xenopus laevis with 12 samples.

Results

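Ribosome-bound RNA of retinal ganglion cells was compared between the injured and the uninjured eye of adult Xenopus laevis, the African clawed frog, 3 days after crush of the right optic nerve. The comparison rests on 2 of the 12 libraries of the series, 1 from the crushed right eye and 1 from the contralateral left eye of the same frogs at day 3. The other libraries are from the crushed and contralateral eyes at days 1, 7 and 11, the right and left eyes of sham-operated frogs at day 1, unoperated (naive) frogs, and total retina. All frogs carried islet2b:EGFP-RPL10a, in which a promoter of the islet2b locus drives an EGFP-tagged ribosomal protein in retinal ganglion cells. They were transgenic F1 progeny of single female founders, older than 6 months and 3.5 to 5.0 cm long. The nerve was crushed with forceps for 5 s at 5 mm from the nerve head, and the protocol gives 10 frogs for an experiment. By the sample labels the right eye was crushed. The design text names the left eye in 1 place, and the labels were followed. Tagged ribosomes were pulled down with antibodies against EGFP (translating ribosome affinity purification, TRAP), and RNA of 3 biological replicates was pooled into each TRAP library. The day 3 ratio therefore has no replicate check.

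Retinal ganglion cells are the neurons whose axons form the optic nerve. In adult mammals they fail to regrow a cut axon and most die, whereas in frogs and fish they survive in large part and grow back to the brain. In mammals, axon injury is relayed to the cell body through stress kinases (DLK and JNK), cytokine receptors that act through JAK and STAT3, and kinases of eIF2alpha. The kinases of eIF2alpha lower general translation while raising that of the transcription factor ATF4, which is known as the integrated stress response. Transcription factors such as ATF3, JUN, SOX11 and C/EBP proteins are known to be induced in injured neurons.

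Genes with 200 or more counts over the pair, 17726 of 45099 gene models, were compared. Counts are reads assigned to a gene by RSEM. Levels are given as CPM, counts relative to the library total, scaled between libraries by the trimmed mean of M-values (TMM). Ratios are log2 of crush over contralateral with a prior count of 2, and intervals of folds are exact 95% intervals that cover counting error only. Day 3 crush had 22615118 counts and day 3 contralateral 34978088, and the 10 most counted genes took 3.04% and 3.48% of them. In addition, the day 3 crush library was set against all 7 uninjured TRAP libraries (4 contralateral, 2 sham, 1 naive) with the quasi-likelihood test of edgeR, over 29487 genes. Genes are said to have risen or fallen where the Benjamini-Hochberg adjusted p of this test was under 0.05. The lone crush library is assumed in it to vary as the 7 do, and those 7 differ in surgery and day. A further fit took the day 3 pair and the sham pair, with the frogs of a pair as a block. It had 4 libraries and 1 residual degree of freedom, from the sham eyes. This fit is given for some, not all, of the genes and lists whose calls it changes. Of all 27109 genes in it, 2623 were called higher and 2480 lower. The names .L and .S mark the copies of a gene left by an ancestral genome duplication, and copies with nearly the same sequence may share reads.

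At day 3, 2413 genes (13.6%) differed by over 2-fold between the eyes, 1411 (7.96%) with the crushed eye higher and 1002 (5.65%) with it lower. The higher side reached further: 367 genes were over 4-fold higher, compared with 62 lower, and 158 were over 8-fold higher, compared with 4 lower. The median ratio of all genes was -0.02. By comparison, each of the 6 other uninjured TRAP libraries had 1.49% to 1.94% of the same genes over 2-fold apart from the day 3 contralateral library, and the right sham eye had 1.33% over 2-fold apart from the left. In each of those 6 libraries more genes were lower (174 to 271) than higher (66 to 127) than in day 3 contralateral. With the mean of those 6 as the comparison, 1492 genes were over 2-fold higher and 901 lower in the crushed eye. The crushed eye lay outside the range of all 7 uninjured libraries for 62.7% of the genes. An unchanged library would also lie outside that range for some genes, a share that was not measured. The 62.7% is therefore not read as a share of genes changed. Of the genes over 2-fold apart, 1381 (7.79%) lay above and 959 (5.41%) below the range of the 7 uninjured libraries. In the edgeR test 3248 genes (11.0%) rose and 3132 (10.6%) fell, or 21.6% in all. Among the 17726 genes of the pair these were 3047 (17.2%) and 2696 (15.2%). Of the genes over 2-fold apart, 1252 rose and 810 fell. A gene list is read below against the shares over 2-fold apart and those that rose and fell.

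**Figure D1:**
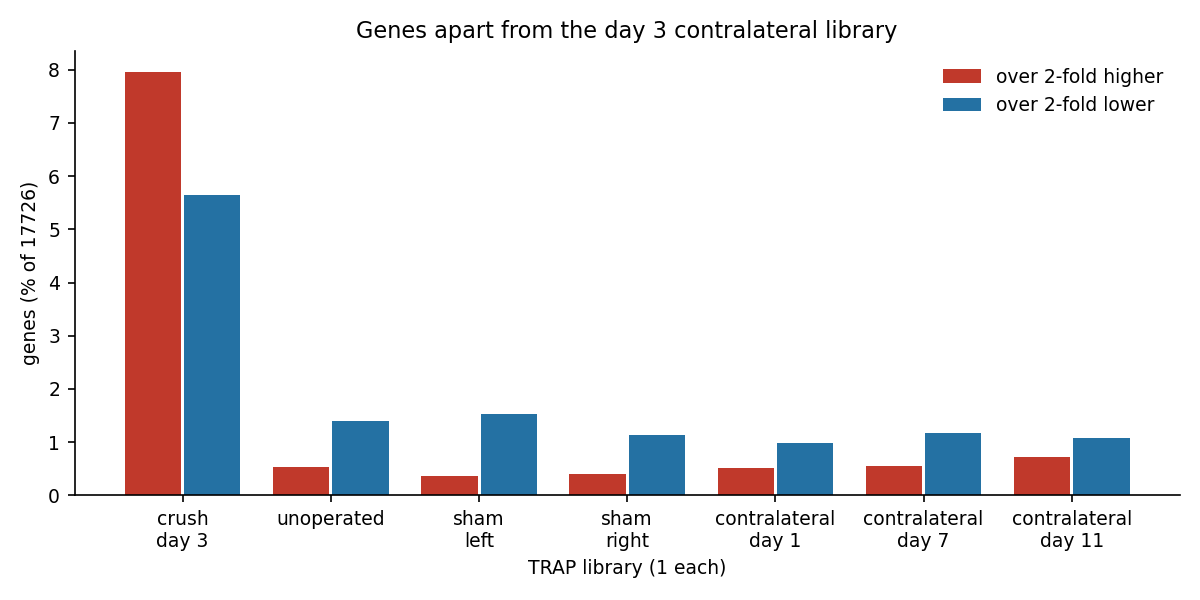
Share of the 17726 genes (%) that were over 2-fold higher (red) or lower (blue) than in the day 3 contralateral library, for the day 3 crush library and the 6 other uninjured TRAP libraries, 1 library each. Day 3 crush had 7.96% higher and 5.65% lower, and no other library had over 1.94% in both directions together.

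The genes with the highest ratios had low levels in the uninjured libraries. They were map3k14.S, which encodes the NF-kappaB-inducing kinase, lmod2.L (leiomodin, an actin nucleator of muscle), socs3.S, flnc.L (filamin C), lepr.L and lep.S. After them came btg5.L, hpd-like.2.L, upp2.L (uridine phosphorylase), atf3.S, hspb1.L (a small heat shock protein) and rasd1.L (a small G protein induced by dexamethasone). All 12 rose. map3k14.S had 310 counts in the crushed eye and 0 in the contralateral eye, at least 164-fold higher where 0 is read as a limit of 3 counts. The exact interval of this fold, which also covers the counting error of the crushed eye, starts at 133. It stood at 13.6 CPM in the crushed eye and at 0.121 to 1.45 CPM (median 0.690) in the 6 other uninjured libraries, a log2 ratio of 4.39 over those. lmod2.L had 244 counts in the crushed eye and 0 in the contralateral eye (at least 129-fold higher by the same limit, with an exact interval that starts at 104). Its 10.7 CPM in the crushed eye stood against at most 0.282 CPM in any uninjured library. Without both sham libraries the edgeR test no longer called map3k14.S (adjusted p = 0.0837), socs3.S (0.08) or flnc.L (0.0599), and the Wald test of DESeq2 did not call lmod2.L (adjusted p = 0.229).

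The lowest ratios were less extreme, and they belonged to genes of modest level. hcn2.L, a pacemaker cation channel gene, had 8 counts in the crushed eye against 221 in the contralateral eye, 17.4-fold lower (interval 8.65 to 40.7). Its level was 0.352 CPM in the crushed eye, 6.11 CPM in the contralateral eye and 2.39 to 4.57 CPM in the other uninjured libraries. Its more abundant copy hcn2.S stood at 27.9 CPM in the crushed eye and 38.4 CPM in the contralateral eye (ratio -0.46). hapln4.L, a link protein of perineuronal matrix, fell to 0.88 CPM in the crushed eye, versus 10.3 CPM in the contralateral eye and 11.8 to 15.9 CPM in the others. bmp2.S (a bone morphogenetic protein), nrm.L (nurim, of the nuclear envelope), tprg1-like.L, fhl2.L (a LIM-domain protein) and ccno.S (cyclin O) had ratios of -2.81 to -2.65. tmem158.1, mcf2.L (a guanine exchange factor), ephx4.L, chrm5.S (a muscarinic receptor) and ppp1r16b.S had ratios of -2.62 to -2.45. All 12 fell. In the plot of levels, no uninjured library overlapped the crushed eye for any of the 24 genes, a property the choice of genes required. With limma-voom 8 of the 12 were not called, hcn2.L (adjusted p = 0.169) and bmp2.S (0.179) among them.

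**Figure D2:**
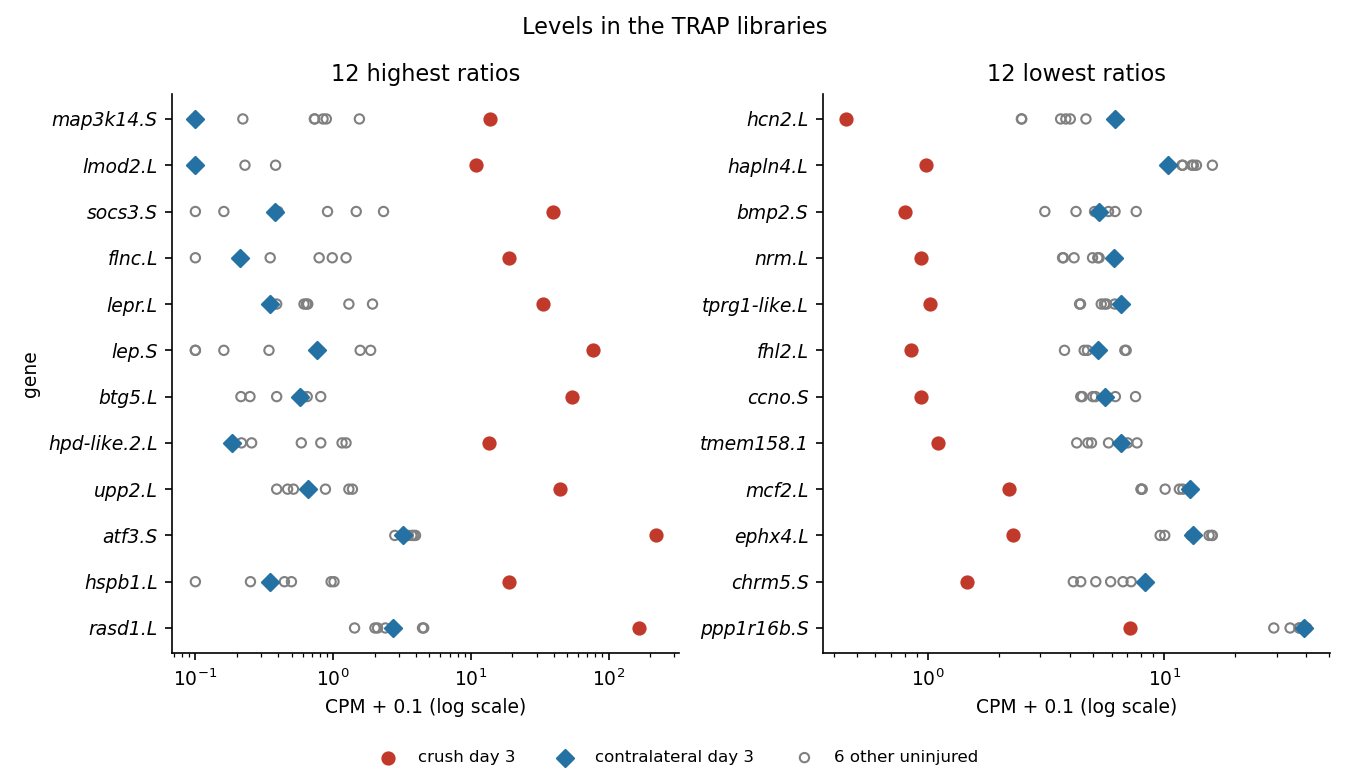
CPM plus 0.1, on a log axis, of the 12 genes with the highest (left panel) and the 12 with the lowest (right panel) day 3 ratio among genes with a symbol that lay outside the uninjured range. The day 3 crush library (red circles) lies apart from day 3 contralateral (blue diamonds) and the 6 other uninjured libraries (open circles) for every gene shown, as the choice required.

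Transcription factors of the AP-1 and ATF group made up the largest median shift of any list. Of 15 measured members, 11 were more than 2-fold higher and 1 more than 2-fold lower, with a median ratio of 2.86, and 11 rose and 1 fell in the edgeR test. ATF3 is a stress-induced partner of JUN, and both are markers of axon injury in mammalian neurons. atf3.L stood at 536 CPM in the crushed eye, versus 8.68 CPM in the contralateral eye and 4.2 to 7.29 CPM (median 5.27) in the other uninjured libraries. That is 61.8-fold higher (interval 55.2 to 69.3), with 6.54 ± 0.27 in the edgeR test (log2 difference ± standard error, adjusted p = 6.46e-07). atf3.S was at 220 CPM in the crushed eye, 3.12 CPM in the contralateral eye and 2.7 to 3.86 CPM in the others. jun.L stood at 507 CPM in the crushed eye, 13.2 CPM in the contralateral eye and 12.2 to 24.7 CPM in the others. jun.S was close to that, with 584 CPM in the crushed eye, versus 41.0 CPM in the contralateral eye. The most abundant member, jund.S, rose to 979 CPM in the crushed eye, versus 134 CPM in the contralateral eye and 135 to 170 CPM in the others. junb.L rose by 3.92 in the pair ratio, junb.1 by 2.90 and fosl1.S, a FOS relative that was rare in uninjured libraries, by 4.33. Against that, fos.L was at 24.4 CPM in the crushed eye and 24.6 CPM in the contralateral eye (adjusted p = 0.97), and fos.S reached 1.16 (adjusted p = 0.0499). Of the small MAF partners, mafg.L fell with a ratio of -1.48 and maff.L rose with 2.12.

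Genes of the integrated stress response, which are targets or parts of the ATF4 pathway, were higher almost throughout. Of 39 measured members 33 were over 2-fold higher (median 2.35), none over 2-fold lower, and 36 rose while 0 fell. ddit3.L, which encodes the transcription factor CHOP, stood at 504 CPM in the crushed eye, versus 15.3 CPM in the contralateral eye and 9.85 to 14.3 CPM in the others. ddit4.S, an inhibitor of mTORC1, stood at 393 CPM in the crushed eye, 12.8 CPM in the contralateral eye and 10.4 to 14.7 CPM in the others. chac1-like.L, named for a glutathione-degrading enzyme and not a member of the list, was at 366 CPM in the crushed eye. It was at 7.21 CPM in the contralateral eye and 7.63 to 10.2 CPM in the others. None of these levels came near the uninjured range. atf4.S and atf4.L themselves, abundant before injury, rose with ratios of 1.89 and 1.11, to 1380 and 1160 CPM in the crushed eye. The enzymes of serine and one-carbon metabolism were unequal. psph.S (4.74) and mthfd2.L (3.38) were high, and phgdh.S (0.53) and psat1.L (0.95) rose by under 2-fold. Their copies phgdh.L and psat1.S had log2 differences of 1.3 and 1.02 with frogs as a block. asns.L, asparagine synthetase, had 240 CPM in the crushed eye and 16 CPM in the contralateral eye. Amino acid carriers followed, with ratios of 3.97 for slc7a3.L (arginine and lysine), 3.46 for slc1a4.L, 3.25 for slc1a5.L and 2.73 for slc7a5.L. The members that did not pass were vldlr.1, vldlr.L and shmt2.S, with ratios of -0.32 to 0.32.

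The cytosolic tRNA synthetases, which load amino acids onto tRNAs and are in part ATF4 targets, moved with them. Of 28 measured genes 22 were over 2-fold higher (median 1.46), and 26 rose while 0 fell. The largest ratio was that of vars.S (valine), with 283 CPM in the crushed eye, 31.0 CPM in the contralateral eye and 18.1 to 30.3 CPM in the others. gars.L (glycine), the most abundant, was at 714 CPM in the crushed eye, 190 CPM in the contralateral eye and 162 to 177 CPM in the others. The scaffold gene aimp1 did not pass in either copy (ratios of 0.08 and 0.18).

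Genes of the unfolded protein response of the endoplasmic reticulum, the stress pathway next to it, were less affected. Of 32 measured, 3 were over 2-fold higher: xbp1.S (2.0), herpud1.S (1.66) and xbp1.L (1.54). In the edgeR test 12 rose and 2 fell, and the median ratio was 0.295. hspa5.S, the chaperone BiP, stood at 209 CPM in the crushed eye, 158 CPM in the contralateral eye and 93.5 to 150 CPM in the others, with an adjusted p of 0.0305. It was not called without a filter on low counts. Its copy hspa5.L rose too, with a log2 difference of 0.74 with frogs as a block. Cytosolic heat shock and chaperone genes were again mixed: 18 of 43 rose and 6 fell (median 0.292). Among them hspb1.L had 18.9 CPM in the crushed eye, 0.249 CPM in the contralateral eye and at most 0.914 CPM in the others, whereas dnajb1.L fell with a ratio of -1.04.

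The cytokine pathway showed a few very large changes among many small ones. Of 28 measured genes of cytokine receptors, JAK-STAT signalling and its feedback, 8 were over 2-fold higher, 0 over 2-fold lower, 14 rose and 1 fell (median 0.455, or 0.293 with copies summed). The 8 were lep.S, both copies of lepr, both copies of socs3, cish.L and both copies of pim1. Leptin is a cytokine-like hormone known from fat tissue, its receptor signals through JAK2 and STAT3, and SOCS3 is the feedback inhibitor that STAT3 induces. lep.S stood at 77.2 CPM in the crushed eye, 0.663 CPM in the contralateral eye and 0 to 1.77 CPM (median 0.152) in the other uninjured libraries. Per length it was at 142 TPM in the crushed eye and 1.25 TPM in the contralateral eye, and lepr.L was at 13.1 TPM in the crushed eye and 0.1 TPM in the contralateral eye. lep.S was thus above its receptor in the crushed eye on the length-scaled scale. lepr.L had 33.3 CPM in the crushed eye, 0.249 CPM in the contralateral eye and 0.289 to 1.83 CPM in the others, and lepr.S had a ratio of 2.77. socs3.L was at 66.7 CPM in the crushed eye, 1.13 CPM in the contralateral eye and 0 to 3.43 CPM in the others, and socs3.S was at 39.0 CPM in the crushed eye, 0.276 CPM in the contralateral eye and 0 to 2.22 CPM in the others. The sham eyes differed in socs3.L by a ratio of 2.69, right over left, below its 5.82 at day 3. pim1.L and pim1.S, kinases induced by STATs, were at 109 and 113 CPM in the crushed eye, against 13.2 and 13.0 CPM in the contralateral eye. The receptor lifr.L rose by under 2-fold (0.98), and osmr.S (-0.06), jak2.L (-0.28) and stat2.L (0.17) did not pass. stat2.L was the only STAT gene among the 28, and stat3 was not among them. socs7.S was the member that fell, with a ratio of -0.71.

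Of MAP kinase cascade genes and dual-specificity phosphatases, 9 of 34 were over 2-fold higher and 0 lower (median 0.249), and 12 rose and 2 fell. The 9 fell into 2 kinds. map2k4, the kinase that activates JNK below DLK, rose in both copies: map2k4.S had 240 CPM in the crushed eye, 63.0 CPM in the contralateral eye and 48.2 to 66.2 CPM in the others. The other 7 were phosphatases that remove phosphate from MAP kinases, led by dusp5.L (3.01) and dusp1.L (2.62). map2k7.L (-0.29) and map2k7.S (0.11), the other JNK kinase, did not pass.

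Other transcription factors known from nerve injury rose in 23 of 44 cases and fell in 4, with 20 over 2-fold higher and 0 over 2-fold lower (median 0.743). crem.L, of the CREB family, stood at 317 CPM in the crushed eye, 19.7 CPM in the contralateral eye and 9.88 to 24.0 CPM in the others. sox11.L, known to favour axon growth in some mouse ganglion cell types, rose to 367 CPM in the crushed eye, versus 97.9 CPM in the contralateral eye and 94.2 to 107 CPM in the others. mycn.L rose with 2.75 while mycn.S fell with -0.79 (adjusted p = 0.0464, or 0.0869 with the frogs of a pair as a block). Both klf6 copies (1.42 and 2.04) rose. KLF6 is known to favour regrowth in zebrafish. klf9.L, whose mouse counterpart restrains axon growth, had a ratio of -0.30 (adjusted p = 0.503).

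Of genes linked to p53, cell death and survival, 13 of 29 were over 2-fold higher and 0 lower (median 0.759), and 18 rose and 2 fell. They include growth arrest genes, pro-death genes and pro-survival genes. gadd45g.S stood at 674 CPM in the crushed eye, 18.8 CPM in the contralateral eye and 12.2 to 17.3 CPM in the others. The anti-apoptotic mcl1.L rose with 1.58 and the pro-apoptotic casp9.S with 1.12. sarm1, which executes axon degeneration in mammals, was split between its copies, with 1.37 for sarm1.L and -0.59 for sarm1.S, both past the threshold, although sarm1.S was not with frogs as a block (adjusted p = 0.118). nmnat2.L and nmnat2.S, which hold SARM1 in check, had ratios of -0.40 and -0.39 and did not pass.

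**Figure D3:**
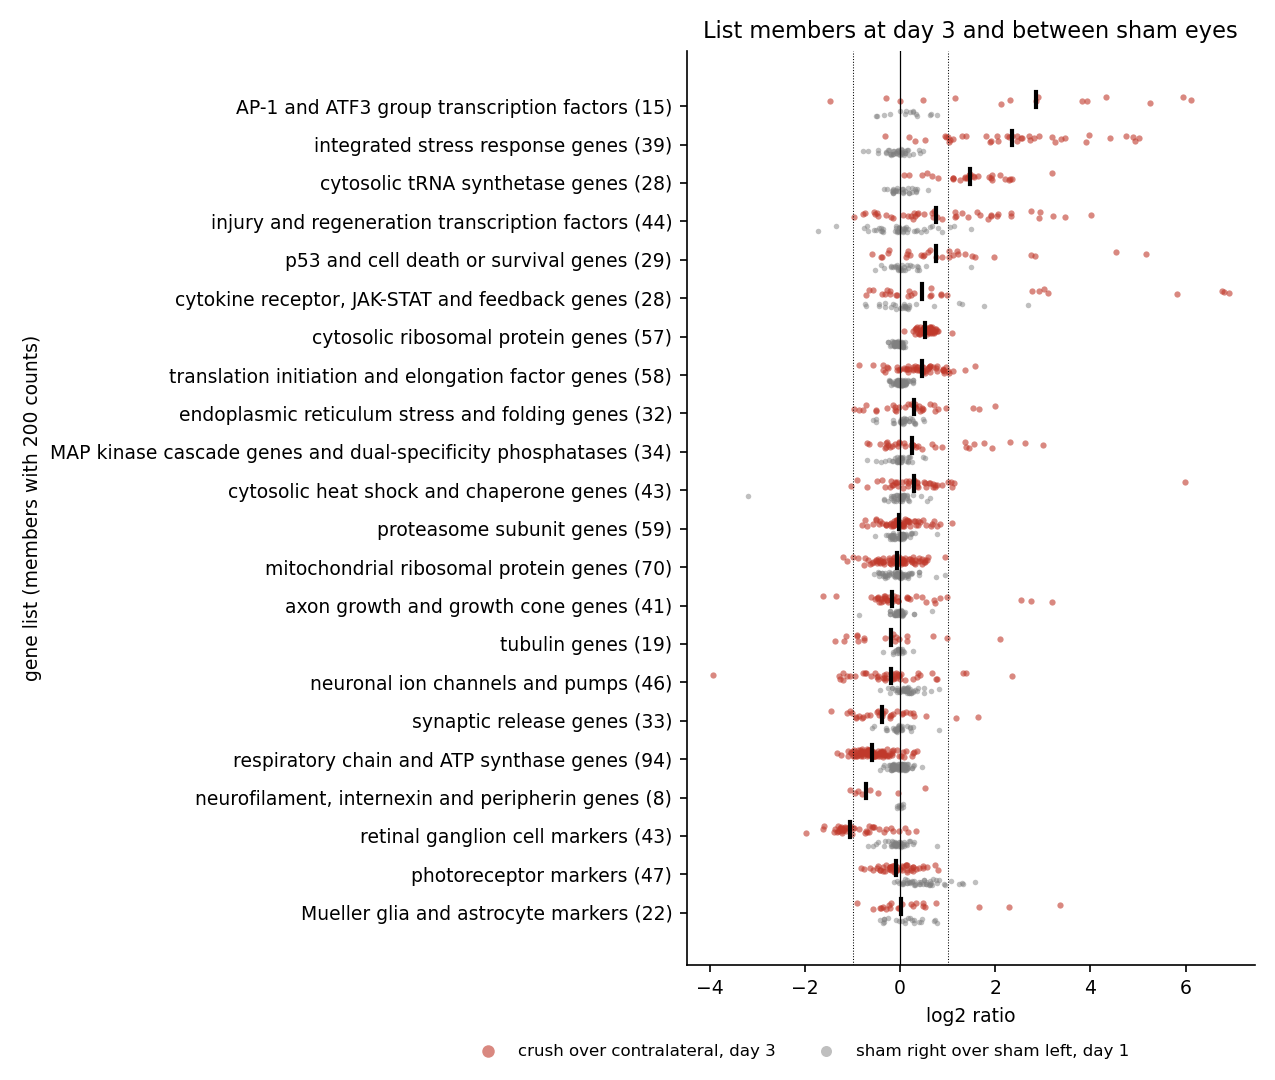
Log2 ratio of each member (points) of 22 gene lists, day 3 crush over day 3 contralateral in red with the list's median as a black bar, and right over left sham eye at day 1 in grey. The AP-1, integrated stress response and tRNA synthetase lists have medians of 2.86, 2.35 and 1.46, and that of retinal ganglion cell markers is -1.06. Dotted lines mark 2-fold.

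Among trophic factor genes the largest ratio was that of igf2.L, which encodes insulin-like growth factor 2. It stood at 643 CPM in the crushed eye, 14.6 CPM in the contralateral eye and 10.4 to 15.2 CPM (median 14.2) in the other uninjured libraries. That is 44.1-fold higher (interval 40.4 to 48.1), with 5.56 ± 0.11 in the edgeR test (adjusted p = 4.47e-25). igf2.S was at 166 CPM in the crushed eye, 5.97 CPM in the contralateral eye and 3.83 to 6.0 CPM in the others. Across 29 trophic factor genes and receptors, 7 rose and 5 fell (median -0.175). vegfa.L (1.48), gfra2.L (1.61), a receptor of the GDNF family, and both inhbb copies rose, inhbb.S not with frogs as a block (adjusted p = 0.119). fgf9.L (-1.47) fell, and bdnf.L had 186 CPM in the crushed eye and 163 CPM in the contralateral eye (adjusted p = 0.109). Of 25 neuropeptide genes 3 rose and 3 fell, both below the shares among all genes of the pair (17.2% and 15.2%). With frogs as a block 10 of the 25 fell, against 2480 of all 27109 genes in that fit. The secretogranin gene scg2.L rose to 1830 CPM in the crushed eye, versus 542 CPM in the contralateral eye and 381 to 502 CPM in the others, and scg2.S had a ratio of 2.39. grp.S (gastrin-releasing peptide) fell with -1.27.

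Guidance genes rose in 16 of 51 cases and fell in 3 (median 0.188). slit1.L, which encodes a repellent axon guidance protein, stood at 71.7 CPM in the crushed eye, 5.11 CPM in the contralateral eye and 2.04 to 4.77 CPM in the others. The semaphorins sema3a.L (1.80) and sema4c.S (1.38) also rose, as did rtn4.S (0.89), which encodes Nogo. Of 29 matrix and protease genes 13 rose and 2 fell. plat.L, the tissue form of plasminogen activator, rose with a ratio of 2.98. ctgf.L (3.48), cyr61.S (4.44) and cyr61.L (2.71), known targets of YAP, rose as well, and mmp17.S and mmp17.L fell with -1.49 and -1.04. Of 19 integrin and cadherin genes 3 rose and 4 fell, cdh13.S with 2.46 and cdh6.L with -1.49.

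Genes of axon growth and the growth cone did not move one way. Of 41 measured, 3 were more than 2-fold higher and 2 more than 2-fold lower, 9 rose and 12 fell, and the median was -0.183. The 3 were both copies of rhob, a small GTPase, and enah.L, an actin regulator. rhob.S stood at 842 CPM in the crushed eye, 91.6 CPM in the contralateral eye and 73.9 to 92.8 CPM in the others. marcksl1.L fell to 246 CPM in the crushed eye, versus 758 CPM in the contralateral eye and 650 to 749 CPM in the others, and the abundant stmn1.S had a ratio of -0.44 (adjusted p = 9.3e-05). Tubulin genes rose in 5 and fell in 7 of 19 cases (median -0.186, or -0.565 with copies summed). With the frogs of a pair as a block 3 rose and 7 fell. tuba4a.S fell to 1300 CPM in the crushed eye, versus 2840 CPM in the contralateral eye and 2550 to 2860 CPM in the others. tubb2b.L rose with 0.99, and tubb6.L rose with 2.09 from a low level of 7.08 CPM in the crushed eye and 1.63 CPM in the contralateral eye. With its copies summed, tubb6 had a ratio of -0.414. Neurofilament genes fell in 6 of 8 cases and rose in 1 (median -0.72, or -0.442 with copies summed). nefl.S fell to 246 CPM in the crushed eye, versus 509 CPM in the contralateral eye and 403 to 519 CPM in the others, whereas its copy nefl.L rose with 0.52. nif.S, a neuronal intermediate filament gene of Xenopus, stood at 175 CPM in the crushed eye, 650 CPM in the contralateral eye and 499 to 583 CPM in the others. Axonal transport genes rose in 8 and fell in 9 of 40 cases (median 0.0164). mapk8ip1.L, a JNK scaffold that links to kinesin, rose with 1.36.

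Markers of retinal ganglion cells themselves were lower. Of 43 measured markers 24 were over 2-fold lower and 0 over 2-fold higher (median -1.06), and 30 fell while 0 rose. pou4f3.L, a POU-domain transcription factor, stood at 16.7 CPM in the crushed eye, 65.6 CPM in the contralateral eye and 70.5 to 92.7 CPM (median 86.6) in the others. rbpms2.L, an RNA-binding protein used to label ganglion cells, fell to 1290 CPM in the crushed eye, versus 3030 CPM in the contralateral eye and 3040 to 3350 CPM in the others. sncg.1 (gamma-synuclein) fell to 398 CPM in the crushed eye, versus 978 CPM in the contralateral eye and 1030 to 1160 CPM in the others. Most Iroquois genes fell as well, irx4.L with -1.33 and irx2.L with -1.21. The copies irx1.S and irx2.S did not pass, and irx2.S had a log2 difference of 0.17 with frogs as a block. The 13 markers that did not pass include thy1.L, at 786 CPM in the crushed eye and 796 CPM in the contralateral eye, and pou4f1.2.S (0.33), which passed with frogs as a block (adjusted p = 0.034). Its copy pou4f1.2.L fell with -0.65. Summed over all 50 models of the list, markers made up 4840 CPM in the crushed eye, versus 9360 CPM in the contralateral eye and 9480 to 10500 CPM in the others. They remained far above total retina: the median log2 ratio over that library was 1.96 in the crushed eye, 3.05 in the contralateral eye and 3.19 in unoperated frogs. In such bulk RNA, fewer ganglion cells and less RNA per cell cannot be told apart. The ribosomal protein gene of the tag, rpl10a.S, which may include transgene reads, stood at 600 CPM in the crushed eye and 568 CPM in the contralateral eye (adjusted p = 0.0985).

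Genes of synaptic release were lower by smaller amounts than ganglion cell markers, and those of channels and receptors were mixed. Of 33 synaptic release genes 17 fell and 3 rose (median -0.391). cplx1.1 (complexin) fell to 1040 CPM in the crushed eye, versus 2240 CPM in the contralateral eye and 2360 to 2730 CPM in the others. The most abundant, snap25.L, was at 2370 CPM in the crushed eye and 2480 CPM in the contralateral eye (adjusted p = 0.156), and both copies of syt4, a synaptotagmin of dense-core vesicles, rose (1.64 and 1.18). Of 46 ion channel and pump genes 10 fell and 3 rose (median -0.192). kcnip3.L, a potassium channel partner, fell to 708 CPM in the crushed eye, versus 1700 CPM in the contralateral eye and 1650 to 1740 CPM in the others, and kcnf1.L had a ratio of -1.52. Of 31 transmitter receptor genes 4 fell and 3 rose, both below the shares of all genes that fell and rose. Their median was -0.248, or -0.026 with the 6 other uninjured libraries as the comparison. Among those that fell, the nicotinic subunits chrnb4.L and chrnb3.L had ratios of -1.35 and -1.19. Other abundant genes that fell were prrt1.L, tfap2d.L, cpne7.S and rac3.L, with ratios of -1.74 to -1.42.

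The machinery of translation and that of respiration moved apart. Ribosomal protein genes of the cytosol numbered 57, of which 53 rose and 0 fell, with 1 over 2-fold higher (median 0.523). All 57 ratios were above 0, the lowest at 0.0774 and the highest at 1.09. rpl3.L, the most abundant, stood at 1520 CPM in the crushed eye, 1010 CPM in the contralateral eye and 1030 to 1200 CPM in the others. Initiation and elongation factors rose in 33 of 58 cases and fell in 3 (median 0.452), eef2.1.L to 1920 CPM in the crushed eye, versus 949 CPM in the contralateral eye and 881 to 1110 CPM in the others. Mitochondrial ribosomal protein genes did not share this, with 3 of 70 that rose and 10 that fell (median -0.0623).

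Nuclear genes of the respiratory chain and ATP synthase fell in 66 of 94 cases and rose in 0, with a median of -0.60 and 7 over 2-fold lower. ndufb4.S, of complex I, fell to 26.1 CPM in the crushed eye, versus 65.7 CPM in the contralateral eye and 55.0 to 72.4 CPM in the others. atp5o.S, of the ATP synthase, fell to 150 CPM in the crushed eye, versus 323 CPM in the contralateral eye and 303 to 325 CPM in the others. The most abundant, atp5b.S, was at 835 CPM in the crushed eye and 1010 CPM in the contralateral eye (adjusted p = 0.0287, 0.0638 without both sham libraries and 0.072 with frogs as a block). Many of these genes are short, and the ratio of all genes also moved with transcript length: with genes cut by length into 4 equal groups, the median was -0.11 in the shortest and 0.04 in the longest. The ribosomal protein genes, short as well, went the other way, and the part of length in either result was not tested. Proteasome subunits had a median of -0.0249, with 9 of 59 that rose and 6 that fell.

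The smaller metabolic lists differed in how many members changed. The lysosome and cell cycle lists stood near or below the shares of all genes that rose and fell. The glycolysis, antioxidant and sterol lists stood above those shares in both directions, and the polyamine list only in the share that rose. The sterol median was -0.177, or 0.035 among genes of 1000 counts. With copies summed, the cell cycle median went from -0.128 to 0.294 and the interferon median from -0.175 to 0.808. Of 19 polyamine and arginine genes 6 rose and 0 fell, arg2.S with 3.19 and odc1.L, ornithine decarboxylase, with 1.77. Of 26 glycolysis and hypoxia genes 6 rose and 7 fell. pfkfb3.L, which makes the activator of phosphofructokinase, rose with 2.40, and tpi1.L (triosephosphate isomerase) fell to 418 CPM in the crushed eye, versus 838 CPM in the contralateral eye. Of 30 sterol and lipid genes 7 rose and 7 fell, idi1.L with -1.47 and srebf1.L with 1.42. Antioxidant genes rose in 9 and fell in 9 of 37 cases. sqstm1.L, the autophagy receptor p62, rose to 822 CPM in the crushed eye, versus 155 CPM in the contralateral eye and 132 to 149 CPM in the others, and sod1.S fell with -1.11. Of 46 lysosome and autophagy genes 5 rose and 7 fell, optn.S with 1.92 and map1lc3b.L with 1.11. Of 14 cell cycle genes 0 rose and 2 fell, chek1.L and dbf4.L, both with -2.03. Neither was called with limma-voom (adjusted p = 0.0624 and 0.119). Of 10 interferon-response genes 4 rose and 2 fell, herc6.L with 3.75.

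Several of the largest ratios belong to genes named for muscle, so muscle markers are given beside them. Of 29 measured actin and muscle-associated genes 12 rose and 5 fell (median 0.433, or 0.703 with copies summed and 0.265 among genes of 1000 counts). flnc.L, an actin cross-linker of muscle, stood at 18.8 CPM in the crushed eye, 0.111 CPM in the contralateral eye and 0 to 1.14 CPM in the others. fhl3.L, a LIM-domain protein, stood at 15.2 CPM in the crushed eye, 0.608 CPM in the contralateral eye and 0.139 to 2.55 CPM in the others. It was not called without the right sham library (adjusted p = 0.0656) or without the day 3 contralateral library (0.0592). Of 28 models of skeletal muscle fibre markers, 6 had 200 counts over the pair, of which 0 rose and 1, ckm.L, fell (-0.94). Summed, the 28 made up 807 CPM in the crushed eye, versus 931 CPM in the contralateral eye and 773 to 924 CPM in the others, most of it from pygm.L. Of the 28, 10 had 0 counts in both eyes, myl2.L, mylpf.S and pvalb.1.L among them. Others at low counts went both ways. Among those lower, myh6.L had 6 counts in the crushed eye and 44 in the contralateral eye, myl3.S 21 and 62, and ckm.S 21 and 54. Among those higher, trim63.S had 45 counts in the crushed eye and 0 in the contralateral eye, and tnnc1.L 15 and 0. trim63.S and tnnc1.L lay above every uninjured library. trim63.S stood at 1.98 CPM in the crushed eye and at most 0.481 CPM in the uninjured libraries. tnnc1.L stood at 0.66 CPM in the crushed eye and at most 0.172 CPM in the uninjured libraries. All these low-count genes were picked out after their values were seen, and the part of muscle tissue in the ratios was not tested. tagln.S stood at 0.792 CPM in the crushed eye and 5.11 CPM in the contralateral eye, but at 0.609 to 1.59 CPM in the other 6 uninjured libraries, so that the contralateral library stood apart (adjusted p = 0.37). With frogs as a block, where that library is its only comparison, the adjusted p was 0.0143.

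Markers of other retinal cells were mixed. Photoreceptor markers (47) had 0 over 2-fold apart, with 1 that rose and 4 that fell, and a sum of 4330 CPM in the crushed eye, 4920 CPM in the contralateral eye and 4270 to 5210 CPM in the others. Amacrine and horizontal cell markers (13) had 0 that passed and a sum of 207 CPM in each eye of the pair. Of 12 bipolar markers 1 rose and 5 fell, with a median of -0.553, or -0.186 with the .L and .S copies summed. Those that fell are isl1.S (-1.28) and isl1.L (-0.59), which ganglion cells also express, gpr179.L (-0.67) and gpr179.S (-0.63), a receptor of bipolar cell dendrites, and gng13.S (-0.64), a G protein subunit. Summed, they stood at 564 CPM in the crushed eye, 629 CPM in the contralateral eye and 623 to 704 CPM in the others. Of 22 markers of Mueller glia and astrocytes 4 rose and 1 fell. Their median ratio was 0.012, with 11 ratios above 0 and 11 below. cd44.S (3.35), sox9.S (2.29) and vim.L (1.66) were over 2-fold higher, vim.L at 26.3 CPM in the crushed eye, 8.29 CPM in the contralateral eye and 5.15 to 10.9 CPM in the others. With frogs as a block, the copies sox9.1 and vim.S had log2 differences of 0.53 and -0.21, and hes1.S had -0.91. Summed, glial markers stood at 744 CPM in the crushed eye, 663 CPM in the contralateral eye and 634 to 779 CPM in the others. Leukocyte and microglia markers were near the limit of counting, with 3 of 25 models above 200 counts. Their sum was 28.3 CPM in the crushed eye, 21.6 CPM in the contralateral eye and 19.7 to 27.2 CPM in the others. Of the 25, 8 had 0 counts in both eyes. The pan-leukocyte gene CD45 had 0 counts in both eyes as ptprc.L, and 1 in the crushed eye and 0 in the contralateral eye as ptprc.S. spi1.L, a myeloid transcription factor, had 16 counts in the crushed eye and 1 in the contralateral eye, or 0.704 CPM in the crushed eye and at most 0.0829 CPM in any uninjured library. lcp1.S, an actin bundler of leukocytes, had 9 counts in the crushed eye and 0 in the contralateral eye, within the range of the others. Some models went the other way: spi1.S had 6 counts in the crushed eye and 11 in the contralateral eye, and cd3e.L 28 and 47. The 3 measured members had a median ratio of -0.233, with itgb2.L (-0.73) and cd8a.S (-0.23) below 0. The member that rose was cxcr4.S (1.40), which did not pass with the frogs of a pair as a block (adjusted p = 0.0944).

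Endothelial and blood markers were higher in sum. They stood at 100 CPM in the crushed eye, 55.3 CPM in the contralateral eye and 47.2 to 64.3 CPM in the others. Of the 6 measured members, however, 3 had a ratio above 0 and 3 a ratio below 0, plvap.L (-0.97) among the latter. The member that rose was cldn5.L, a tight junction gene, at 57.9 CPM in the crushed eye and 19.4 CPM in the contralateral eye. The globin genes hba1.L (0.77) and hbg1.L (1.14) did not pass, but hba1.L did without the day 11 contralateral library (adjusted p = 0.03). Of 6 measured Schwann cell and oligodendrocyte markers, pmp22.S (2.01) and pmp22.L (1.06) rose and mpz.L fell (-0.79). Their median ratio was -0.61, with 2 ratios above 0 and 4 below. Summed over all 19 models, they stood at 409 CPM in the crushed eye, 648 CPM in the contralateral eye and 596 to 751 CPM in the others. Pigment epithelium (3), fibroblast (1) and lens or cornea markers (2) were barely measured, and of these cryba1.L fell, with 47 counts in the crushed eye and 267 in the contralateral eye. The part of other cells in the ratios of ganglion cell genes was not tested.

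Each day has its own pair of libraries, and the day 3 pair can be set beside those of days 1, 7 and 11. Of the genes over 2-fold higher at day 3 and with 200 counts in both pairs, 3.66% were also over 2-fold higher at day 1, 68.5% at day 7 and 61.2% at day 11. They made up 36.9%, 31.5% and 27.6% of the genes that were higher on those days. Of the genes over 2-fold lower at day 3, 0.8%, 60.6% and 59.9% were also lower at days 1, 7 and 11, or 17.8%, 18.4% and 16.2% of those days' genes. Some went the other way by over 2-fold on another day: 5, 25 and 48 of the higher genes and 3, 16 and 34 of the lower genes at days 1, 7 and 11. These overlaps are to be read against all genes compared, 17605, 17131 and 17519 at days 1, 7 and 11. Of those, 130, 2989 and 3036 were over 2-fold higher on the other day, and 45, 2877 and 3593 were over 2-fold lower.

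The lists took different courses over the 4 days. For AP-1 and ATF genes the median ratio was 0.58, 2.86, 2.10 and 1.79 at days 1, 3, 7 and 11, and for the integrated stress response 0.04, 2.35, 1.91 and 1.83. Both medians were highest at day 3. tRNA synthetases (0.03, 1.46, 2.01 and 2.04), ribosomal proteins (0.03, 0.52, 1.48 and 1.56) and the proteasome (-0.13, -0.02, 1.19 and 1.34) had higher medians on the later days. Ganglion cell markers (-0.07, -1.06, -2.35 and -2.30) and neurofilaments (0.02, -0.72, -1.73 and -1.40) had lower ones. Respiratory chain genes had their lowest median at day 3 (-0.17, -0.60, -0.00 and 0.36). None of these courses has a replicate at any day, and differences between days were not tested.

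**Figure D4:**
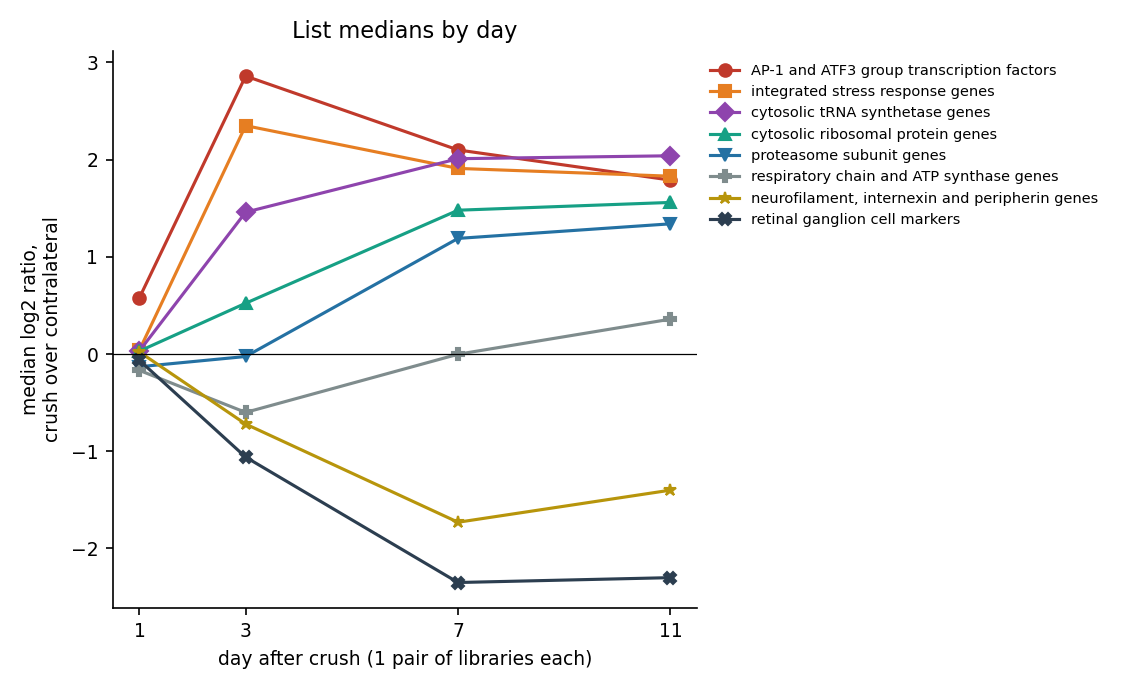
Median log2 ratio of crush over contralateral for 8 gene lists against the day after crush (1, 3, 7 and 11), 1 pair of libraries a day. AP-1 and integrated stress response medians are highest at day 3 (2.86 and 2.35), and the respiratory chain median is lowest there (-0.60).

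Some genes stood out at day 3 in particular, by a choice made on these ratios, so their values are a description. rnf207.S, a ring finger protein gene, had ratios of 0.19, 3.68, 0.94 and 0.26 at days 1, 3, 7 and 11, with 61.3 CPM in the crushed eye at day 3, 4.75 CPM in the contralateral eye and 4.59 to 8.71 CPM in the others. nppc.S, C-type natriuretic peptide, had 0.51, 2.99, 0.75 and 0.24. egr1.L, an immediate early transcription factor, had -0.23, 2.91, 0.71 and -1.39, and ddit4.S had 0.28, 4.93, 2.73 and 2.04. All of them rose in the edgeR test, as did col24a1.L (a collagen, 2.34), whose 7.04 CPM in the crushed eye stood above 1.35 CPM in the contralateral eye and 2.63 to 3.83 CPM in the others. cyp27b1.L, the enzyme that makes active vitamin D, had 4.96 at day 3 and 9.2 CPM in the crushed eye, 0.249 CPM in the contralateral eye and 0.0406 to 2.8 CPM in the others. It did not pass (adjusted p = 0.117), but passed without the naive library (0.0319) or without the day 7 contralateral library (0.0286), with limma-voom (0.000102) and with frogs as a block (0.000782). Among genes lowest at day 3, thyn1.L had 0.08, -2.08, 0.49 and 0.73 over the 4 days. snap29.S, a SNARE protein of autophagy, had -0.38, -2.14, 1.00 and 2.23. cfap45.S (-2.02 at day 3) and slk-like.L (-2.10) fell as well, and nsun5.1 (-2.15) did not pass (adjusted p = 0.0507). It passed with DESeq2 (0.0336), with no filter on low counts (0.047), without the day 7 (0.0218) or the day 11 contralateral library (0.0338), and with frogs as a block (0.0117). With limma-voom cfap45.S (0.158), slk-like.L (0.263) and snap29.S (0.124) were not called.

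**Figure D5:**
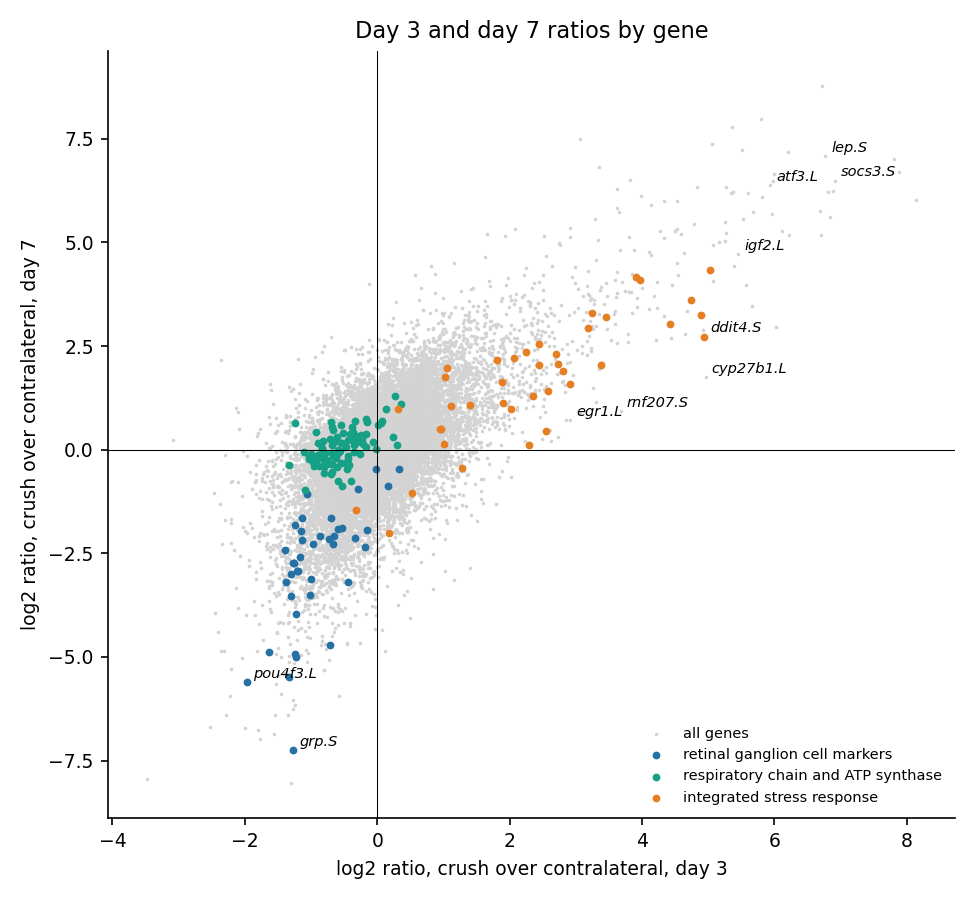
Log2 ratio of crush over contralateral at day 7 against that at day 3 for the 17131 genes with 200 counts in both pairs (grey), with 3 lists in colour and some named genes. Ganglion cell markers (blue) lie lower at day 7, with medians of -1.06 at day 3 and -2.35 at day 7, while respiratory chain genes (green) are at -0.60 at day 3 and about 0 at day 7.

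The 2 copies of a gene could be compared in 3373 pairs with symbols. At least 1 copy was over 2-fold higher in 416 of them, and both were in 125 (30.05%). At least 1 was over 2-fold lower in 253, and both in 56 (22.13%). In 9 pairs the copies moved by over 2-fold in opposite directions. Among them are anxa2, apln, c12orf45, fam134b, gab2, grik4-like, kcns2 and rps6ka1, named after their values were seen. The annexin gene anxa2.S had 117 CPM in the crushed eye and 25.1 CPM in the contralateral eye, whereas anxa2.L had 20.4 CPM in the crushed eye and 49.5 CPM in the contralateral eye. Over all pairs, the ratios of the copies had a Pearson r of 0.628 at day 3, a description across genes of the same libraries whose reads can be shared.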

How the data were processed

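Reads were handled with RSEM 1.2.21, Bowtie2 2.2.5 and Trimmomatic 0.33, per the submitters' processing notes. Genome build: not given in the sources used here. Per gene model, the authors deposited an expected count estimated by RSEM, a TPM value and a length, per the file headers. The deposited TPM values were used to compare 2 genes per length. Expected counts were rounded, and library totals moved by at most 0.000797%. Totals of the 12 libraries ran from 16820509 to 63299958.

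TMM factors were taken over the 11 TRAP libraries in edgeR 4.0.16 (R 4.3.3). The quasi-likelihood test (robust, filterByExpr) set 1 crush library against 7 uninjured ones, with Benjamini-Hochberg adjustment over 29487 genes. Its p-values measure spread between pooled libraries. On simulated counts for this comparison it recovered 74% of genes changed 2-fold and 97% of genes changed 4-fold (100 each of 22717). It made 13 false calls there, 7.07% of its calls. The changed genes were drawn above a floor of mean CPM, so recovery of genes rare in uninjured libraries was not measured. The simulated crush library was given the dispersion of the 7 uninjured ones, so that assumption was not tested. The eyes of a pair come from the same frogs, per the labels, so a paired fit was added. It takes the sham eyes as unchanged. On the same simulated counts it recovered 30% of genes changed 2-fold and 90% of those changed 4-fold. Those counts held no difference between frogs.

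Symbols served to match 46 gene lists. Of 10906 symbols with 200 counts, 7849 match a symbol of RefSeq (assembly Xenopus_laevis_v10.1), and 6820 models had no symbol. gap43, isl2, rho and gapdh found no model by symbol. No list was tested. Earlier results of these data were known when the comparison, lists and naming rule were chosen. The patterns for ribosomal proteins and translation factors were narrowed after values were seen, to leave out kinases. Among symbols with 200 counts, over 2-fold apart and outside the uninjured range, the rule takes the 12 highest and 12 lowest ratios, the 8 highest and 8 lowest among genes of at least 50 CPM, and 6 genes each, over 4-fold apart, that peaked or dipped at day 3. It adds per list up to 4 members with the largest absolute ratio and the most abundant one. Other members were named for their roles after their values were seen. Promoter motifs were not analysed here. Some single genes are not reported here. DESeq2 1.42.0 and limma-voom (limma 3.58.1) were alternatives.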

Additional observations from a re-analysis of the deposited data

Results flagged for a closer look

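In 5 named genes the pair ratio at day 3 and that of another day lay over 2-fold on opposite sides, and the difference between days was not tested. col24a1.L had a log2 ratio of crush over contralateral of 2.34 at day 3 and -1.04 at day 1. cacnb3.L, a calcium channel beta subunit, had 1.32 at day 3 and -1.89 at day 11, with an adjusted p of 0.115 in the edgeR test at day 3. dnajb4.S, a chaperone gene, had 1.07 at day 3 and -1.55 at day 11 (adjusted p = 0.346 at day 3). egr1.L had 2.91 at day 3 and -1.39 at day 11. snap29.S had -2.14 at day 3 and 2.23 at day 11. Each day is 1 pair of pooled libraries.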

How the results depend on the processing

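The counts of genes over 2-fold apart in the pair stayed within 1.5 times under median-of-ratios, total-count and 12-library TMM scaling (the last added after seeing the data), prior counts of 0.5 and 5, the 6 other uninjured libraries as comparison, and summed copies. They ranged there from 1117 to 1492 higher and from 694 to 1119 lower. A floor of 50 counts gave 2189 higher and 1935 lower, one of 1000 counts 707 and 368, and a 4-fold threshold 367 and 62. The 4-fold threshold made the higher share 85.5%, against 58.5% at 2-fold. In the fit against the uninjured libraries, leaving out each in turn gave 3057 to 3387 genes that rose and 2898 to 3350 that fell. limma-voom called 1489 that fell, and its higher share was 67.4% against 50.9%. Of 244 named genes 192 were called, and 191 of these in all 7 fits that left out a library, fhl3.L being the exception. With copies summed, tubb6.L (-0.414) and cacnb3.L (-0.545) changed sign, since the other copy is the more abundant. The causes of the other shifts were not tested. With a replicate block for the frogs of a pair, added after seeing the data, 2623 genes rose and 2480 fell, and 187 of the 192 named genes were called. Of 44 list medians, 21 moved beyond the spread of the uninjured libraries with copies summed and 19 with the 6 other uninjured libraries as comparison. Over these settings 10 medians changed sign, none of them above 0.177 in size before the setting was changed. Some were larger after it: the interferon median went from -0.175 to 0.808 with copies summed. Depth limits low genes: against a library at 0, folds are bounds from 3 counts.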
